A study of Mus musculus with 6 samples.

Results

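Glutamate receptor subunits and the proteins that anchor them were followed as 38 genes in the dorsal root ganglia (DRGs) of control and Tlx3cko mice. The genes were chosen by name and role, as AMPA, kainate, NMDA, delta and metabotropic receptors, the kainate receptor partners Neto1 and Neto2, and the Dlg, Homer, Shank and Grip scaffolds. All 38 had a row among the 47937 rows of the count table, and the 36 with at least 10 counts in total are described in full. RNA was taken from the cervical, thoracic and lumbar DRGs of 3 control mice, which the labels call wild type, and 3 Tlx3cko mice (Tlx3f/f;SNS-cre), all on the C57BL/6 strain and about 2 months old. In Tlx3cko mice, floxed Tlx3 alleles are recombined by a Cre under the promoter of Nav1.8 (Scn10a), a sodium channel of most nociceptors, so Tlx3 is kept in the DRG neurons where this Cre is not active. The labels do not say whether the controls carried floxed alleles or the Cre.

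Ionotropic glutamate receptors are tetrameric cation channels, and the subunits in each tetramer set its speed, its calcium permeability and its affinity for glutamate. Metabotropic receptors act through G proteins, and those of group II and group III mostly restrain transmitter release. DRG neurons are themselves glutamatergic and make few synapses on their cell bodies, so much of the receptor protein they make is carried to their central terminals in the dorsal horn and to their endings in the skin, while MAGUK, Homer, Shank and Grip proteins tether receptors at membranes.

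The 6 libraries held between 11458299 and 18775628 counts, and 20006 genes reached 10 counts in total and were tested. Values below are normalized counts, scaled by edgeR's TMM factors to the mean effective library size of 14970767, given as mean ± SD with n = 3 per genotype. Tlx3 itself was at 2057 ± 173 in control and 1495 ± 141 in Tlx3cko DRGs (log2 fold change -0.46, SE 0.09, edgeR adjusted p = 0.0122). Control replicates 1 and 2 carried 591 and 493 counts of Xist, the RNA that silences an X chromosome in females, and the other 4 libraries at most 2, so females were found among the controls only. The genotype effect was therefore also estimated with a sex term, which leaves control replicate 3 against the Tlx3cko libraries. Sensory neuron markers were abundant, at a sum of 9412 to 10169 CPM (counts scaled to the library's effective size) in control and 10588 to 11075 in Tlx3cko libraries, with 2 of 7 higher in Tlx3cko. Among neuron classes, all 6 non-peptidergic markers were lower (498.7 to 677 CPM in control, 182 to 226 in Tlx3cko), as were all 3 markers of C-fibre low-threshold mechanoreceptors (C-LTMRs; 74.3 to 149 against 16.7 to 19.4 CPM). Of the peptidergic markers 3 of 5 were higher (1545 to 1632 against 2584 to 2797 CPM), and of the myelinated neuron markers 2 of 5 (1737 to 1861 against 2218 to 2369 CPM). Of 22 satellite glia, Schwann cell, blood and immune markers none passed edgeR's threshold, 3 had an unadjusted p under 0.05, and 2 passed with DESeq2 and 1 with limma-voom. Of 7 spinal cord markers, Olig1, Olig2, Mog, Slc6a5 and Lbx1 had at most 5 counts in any library, Aqp4 did not pass, and Pax2 was lower (24 to 34 counts per control and 1 to 6 per Tlx3cko library). Skeletal muscle markers summed to 6.93 to 123 CPM in control and 102 to 190.0 CPM in Tlx3cko libraries, with 1 of 6 (Myh4) higher.

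Of the 36 members tested, 5 differed between the genotypes, namely Grik1, which was lower, and Grin2d, Gria2, Grm4 and Grm8, which were higher in Tlx3cko DRGs. Over all genes tested, 851 passed the same threshold, which is 4.25% (512 lower, 2.56%, and 339 higher, 1.69%), against 13.9% of the members. The 3 libraries of one genotype lay wholly above or below those of the other for 16 of the 36 members (44.4%) and for 19.7% of all genes tested. The median log2 fold change was 0.11 over the members and -0.00 over all genes. A further 8 members had an unadjusted p under 0.05 but did not pass the adjusted threshold. Without control replicate 2 or Tlx3cko replicate 2 the number of members called higher fell from 4 to 1, and to 2 if control replicate 1 or Tlx3cko replicate 1 or 3 was left out.

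**Figure D1:**
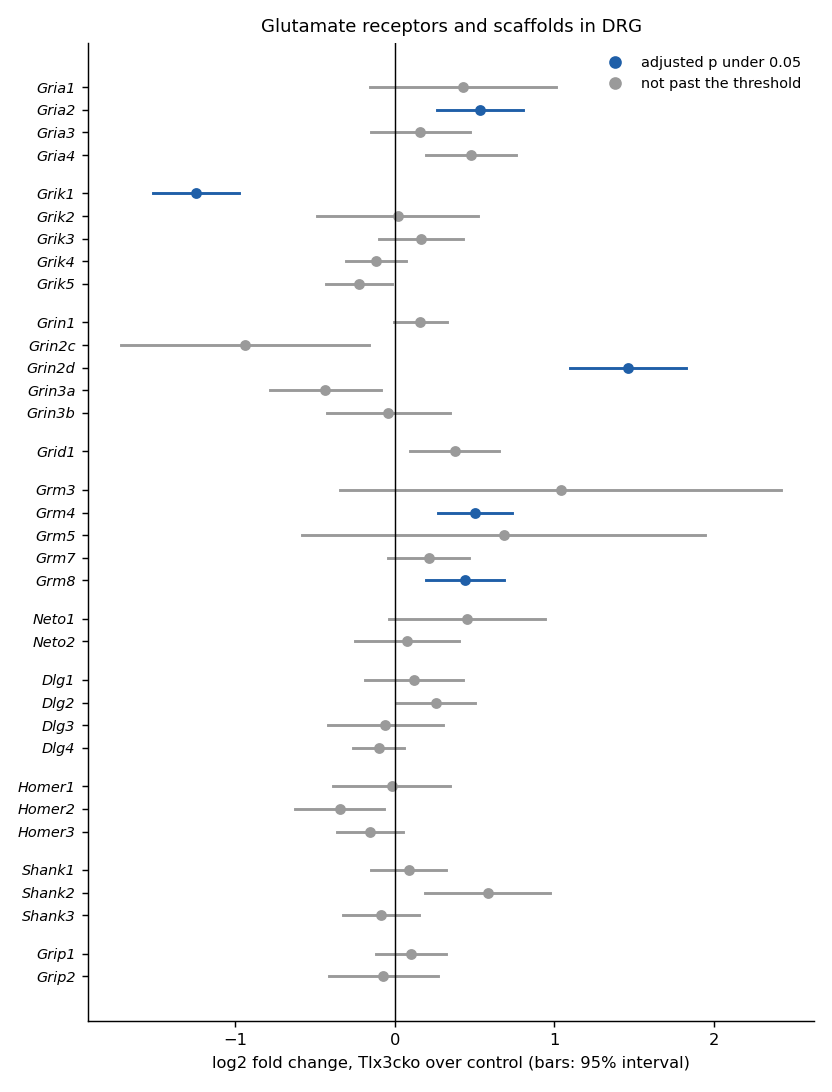
Log2 fold change (Tlx3cko over control, horizontal axis) of 34 members by family, with bars for the 95% interval of edgeR's fit over 3 libraries per genotype. Blue marks the 5 members past the adjusted threshold: Grik1 lies at -1.24, Grin2d at 1.46, and Gria2, Grm4 and Grm8 between 0.44 and 0.54. Grin2a and Grm2, with at most 6 counts in any library, are not drawn.

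Kainate receptors held the only member that passed the test as lower. Grik1 (ENSMUSG00000022935, chr16:87895900-88290265, minus strand, GRCm38) encodes GluK1, the kainate receptor subunit long known from C-fibre neurons, and it was at 3415, 4836 and 4887 normalized counts in control replicates 1, 2 and 3 and at 2041, 1766 and 1740.0 in Tlx3cko replicates 1, 2 and 3. The lowest control library was well above the highest Tlx3cko library. Grik1 thus went from 4379 ± 835 to 1849 ± 167, or 42.2% of control (log2 fold change -1.24, SE 0.12, 95% interval -1.51 to -0.97, edgeR adjusted p = 6.7e-05). The fall stayed past the threshold in all 6 fits that left out one library (-1.40 to -1.16) and with the sex term (-1.40, edgeR adjusted p = 0.000459). In bulk tissue, fewer cells of a type and less RNA per cell cannot be told apart. The non-peptidergic and C-LTMR markers fell in the same libraries, and their part in the result was not tested.

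The other kainate subunits did not pass the threshold. Grik2, for GluK2, stood at 111 ± 18.3 and 112 ± 34.3 (interval of the log2 fold change -0.49 to 0.52), and Grik3, for GluK3, at 436 ± 54.9 and 488 ± 32.5 (-0.10 to 0.43). Grik4 and Grik5 encode GluK4 and GluK5, the high-affinity subunits that form channels only together with GluK1 to GluK3. Grik4 was at 1098 ± 64.0 in control and 1012 ± 44.3 in Tlx3cko DRGs (interval -0.31 to 0.07). Grik5 was at 1125 ± 87.5 and 962 ± 68.7 (log2 fold change -0.22, interval -0.43 to -0.02, edgeR adjusted p = 0.285), with 1027 to 1195 in the controls and 889 to 1025 in Tlx3cko, so that the groups barely separated.

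How far reads can tell these subunits apart is seen in the sequence of their channel. The following 60 bases of coding sequence lie at the third membrane segment, which lines the gate of the pore and is the most conserved part of the family. They are read from GRCm38 5′ to 3′ on the coding strand, with capitals at the bases that differ from Grik1, for the 5 kainate subunits and for 1 AMPA and 1 NMDA subunit.
Grik1 (chr16:87935988-87936047, minus strand): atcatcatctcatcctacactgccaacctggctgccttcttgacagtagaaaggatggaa
Grik2 (chr10:49240669-49240728, minus strand): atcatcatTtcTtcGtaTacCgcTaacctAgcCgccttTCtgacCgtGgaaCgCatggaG
Grik3 (chr4:125694030-125694089, plus strand): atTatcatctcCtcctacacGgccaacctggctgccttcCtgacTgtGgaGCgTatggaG
Grik4 (chr9:42543848-42543907, minus strand): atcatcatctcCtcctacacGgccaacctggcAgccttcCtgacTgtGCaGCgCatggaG
Grik5 (chr7:25015898-25015957, minus strand): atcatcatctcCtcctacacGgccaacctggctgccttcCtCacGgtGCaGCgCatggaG
Gria2 (chr3:80702548-80702607, minus strand): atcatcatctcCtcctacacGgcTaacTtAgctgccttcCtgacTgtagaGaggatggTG
Grin1 (chr2:25297178-25297237, minus strand): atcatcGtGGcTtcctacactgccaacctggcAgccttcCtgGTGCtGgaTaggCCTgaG
Even here the other kainate subunits differed from Grik1 at 10 to 15 of 60 bases, Gria2 at 10 and Grin1 at 16. Over whole annotated transcripts, the longest run that Grik1 shared with another subunit of its family was 35 bases (with Grik2), and that of Grin2d was 32 (with Grin2c). The longest between any pair was 59 bases, between Gria3 and Gria4. The paired-end reads were longer than any of these runs, by the length that the study's methods give.

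NMDA receptors are built on GluN1, encoded by Grin1, with GluN2 subunits that set their kinetics. Grin2d (ENSMUSG00000002771, chr7:45831883-45878378, minus strand) encodes GluN2D, whose channels close slowly and are only weakly blocked by magnesium. It was at 226, 184 and 157 normalized counts in control replicates 1, 2 and 3 and at 412, 581 and 564 in Tlx3cko replicates 1, 2 and 3. Every Tlx3cko library exceeded every control library, and the group means were 189 ± 34.5 and 519 ± 93.2, a 2.75-fold difference (log2 fold change 1.46, SE 0.17, 95% interval 1.10 to 1.82, edgeR adjusted p = 0.000179). The rise passed the threshold in all 6 fits that left out one library (1.34 to 1.61) and with the sex term (1.72, edgeR adjusted p = 0.00222). The skeletal muscle markers summed to 123, 35.1 and 6.93 CPM in control replicates 1, 2 and 3. In Tlx3cko replicates 1, 2 and 3 they summed to 190.0, 165 and 102 CPM. These sums ranked the controls in the same order as Grin2d. Among the Tlx3cko libraries the order differed, with replicate 1 highest in the muscle sum and lowest in Grin2d. The part of muscle RNA in the result was not tested. Exons of Gm45441 on the opposite strand cover 9.66% of the exon bases of Grin2d, and Gm45441 was not analysed here. The summed peptidergic and myelinated neuron markers were also higher in the Tlx3cko libraries, where Grin2d, Gria2, Grm4 and Grm8 rose, and their part in these results was not tested. Not all markers of these lists followed the sums, and the peptidergic marker Kit was at 1124 ± 77.4 in control and 879 ± 70.7 in Tlx3cko DRGs (log2 fold change -0.36, edgeR adjusted p = 0.0571).

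Grin1 was the most abundant NMDA transcript, at 2409 ± 129.5 in control and 2691 ± 129 in Tlx3cko DRGs (log2 fold change 0.16, interval -0.01 to 0.33, edgeR adjusted p = 0.375). Exons of its antisense gene Grin1os, with 2860 to 4037 counts per library, cover 13.5% of the exon bases of Grin1, and without known use of strand their reads cannot be told apart. Grin3a, for the glycine-binding GluN3A that lowers calcium entry, was at 354 ± 40.4 and 263 ± 52.6 (-0.43, edgeR adjusted p = 0.194). Its lowest control library (310.2) lay just above its highest Tlx3cko library (304). Grin2c, for GluN2C, had 33 to 40 counts per control library and 14 to 20 per Tlx3cko library (-0.94, interval -1.71 to -0.16, edgeR adjusted p = 0.219). Grin3b, for GluN3B, overlapped widely at 239 ± 50.4 and 232 ± 36.7, and exons of the strongly read gene Tmem259 cover 32.1% of its exon bases on the opposite strand. The GluN2 subunits of the forebrain were at the limit of detection. Grin2a, for GluN2A, had 1, 0 and 2 counts in the controls, against 2, 5 and 2 with Tlx3 deleted. Grin2b, for GluN2B, had 0 counts in all 6 libraries, where a count of 0 allows up to 3 counts, or 2.39 to 3.94 normalized counts. With 12 counts in total Grin2a was the member closest above the minimum of 10, followed by Grm2 with 14, and below it were Grm6 with 1 count and Grin2b with 0.

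AMPA receptors carry the fast glutamate response. Gria2 (ENSMUSG00000033981, chr3:80681450-80802835, minus strand) encodes GluA2, the subunit that makes AMPA receptors impermeable to calcium once its RNA is edited. It was at 279.6, 264 and 313 normalized counts in control and at 397, 391 and 455 in Tlx3cko replicates 1, 2 and 3. The groups did not overlap, with means of 286 ± 25.2 and 414 ± 35.0 (log2 fold change 0.54, SE 0.12, 95% interval 0.27 to 0.80, edgeR adjusted p = 0.0273). The call held in 2 of 6 fits with one library left out, since leaving out control replicate 1 or 2 or Tlx3cko replicate 2 or 3 gave an edgeR adjusted p of 0.0654, 0.106, 0.0621 and 0.155. It was also lost with the sex term (0.40, edgeR adjusted p = 0.401).

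Gria4, for GluA4, the AMPA subunit with the highest level per kilobase in these libraries, was at 680.0, 509.6 and 771 in control and at 907, 900.2 and 927 in Tlx3cko replicates 1, 2 and 3. The Tlx3cko libraries were close together and above all controls, but the difference did not pass the threshold (log2 fold change 0.48, SE 0.13, interval 0.20 to 0.76, edgeR adjusted p = 0.0596). It passed without control replicate 3 (0.62, edgeR adjusted p = 0.0234) and with DESeq2 (adjusted p = 0.0107). It also passed without the filter on low counts (edgeR adjusted p = 0.000554), where the log2 fold change was still 0.48. Gria1, for GluA1, was the most scattered, at 243, 349 and 124 in control and 341, 270.3 and 343 in Tlx3cko (0.43, interval -0.16 to 1.01, edgeR adjusted p = 0.544). Its value in control replicate 3 was the lowest of the 6 libraries, and with the sex term, which sets that library alone against Tlx3cko, the log2 fold change was 1.36 (edgeR adjusted p = 0.0143). Gria3, for GluA3, was at 220.0 ± 11.9 and 247 ± 29.6 (interval -0.15 to 0.47).

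**Figure D2:**
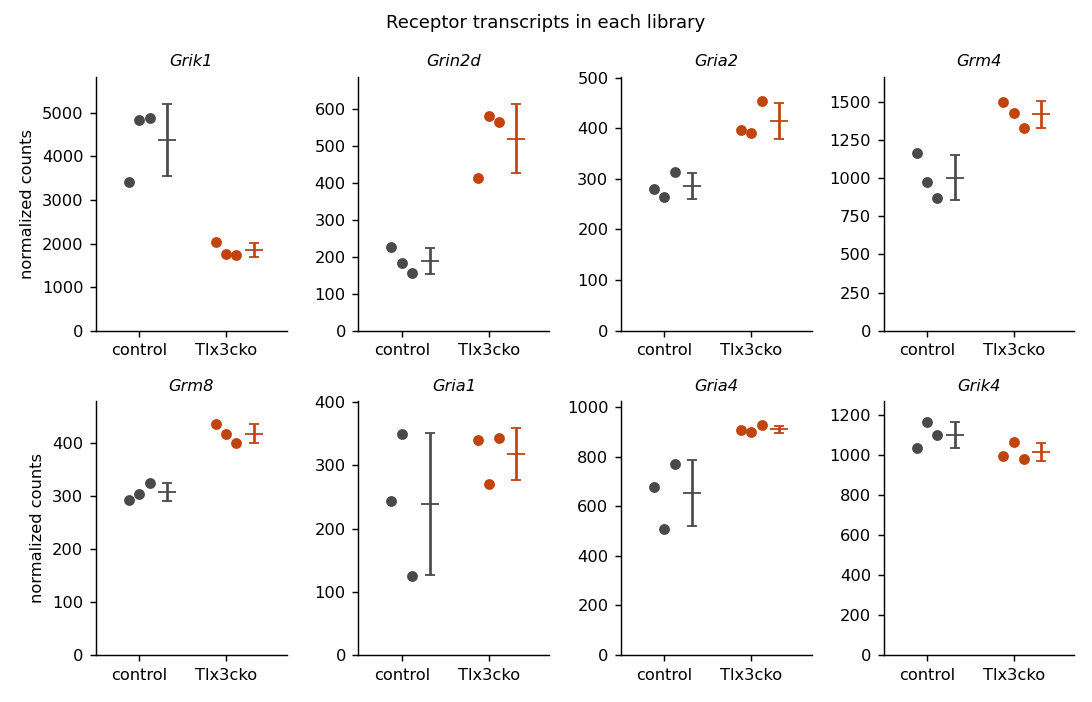
Normalized counts (vertical axes, from 0) of 8 receptor genes in each library, as points, with the mean and SD beside them (n = 3 per genotype). Grik1 is lower in all 3 Tlx3cko libraries (1740.0 to 2041 against 3415 to 4887) and Grin2d higher (412 to 581 against 157 to 226), while the libraries of Gria1 and Grik4 overlap.

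Among metabotropic receptors, the members that rose both belong to group III, which couples to inhibitory G proteins at presynaptic terminals. Grm4 (ENSMUSG00000063239, chr17:27422387-27521403, minus strand) encodes mGluR4 and was at 1167, 975 and 873 normalized counts in control and at 1505, 1429 and 1329.6 in Tlx3cko replicates 1, 2 and 3. The groups did not overlap, with means of 1005 ± 149 and 1421 ± 88.1 (log2 fold change 0.50, SE 0.11, 95% interval 0.27 to 0.73, edgeR adjusted p = 0.0177). The rise held with the sex term (0.70, edgeR adjusted p = 0.0212). It missed the threshold without control replicate 2 or 3 and Tlx3cko replicate 1 or 2 in turn, where the edgeR adjusted p was 0.0741, 0.0732, 0.0595 and 0.0644. The skeletal muscle sums given above ranked the libraries in the same order as Grm4 within each genotype. Gria2 followed that order in neither genotype, and Grm8 among the Tlx3cko libraries only. The part of muscle RNA in these results was not tested.

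Grm8 (ENSMUSG00000024211, chr6:27275119-28135178, minus strand), for mGluR8, was at 291, 304 and 325 in control and at 435, 416 and 399.6 in Tlx3cko replicates 1, 2 and 3. The spread within each genotype was small, and the means were 307 ± 16.8 and 417 ± 17.7 (log2 fold change 0.44, SE 0.11, interval 0.19 to 0.69, edgeR adjusted p = 0.0474). This call was the weakest of the 5, since it was lost in all 6 fits with one library left out (edgeR adjusted p 0.0732 to 0.140) and with the sex term (0.36, edgeR adjusted p = 0.443). Grm7, for mGluR7 and the other group III receptor of neurons, was at 928 ± 53.8 and 1077 ± 180.5 and overlapped (0.21, interval -0.04 to 0.47, edgeR adjusted p = 0.468). Receptors of the other groups were scarce. Grm5, for the excitatory group I receptor mGluR5, had 6 to 25 counts per control library and 14 to 27 per Tlx3cko library. Of the group II receptors, Grm3 had 4 to 14 and 8 to 26 counts and Grm2 at most 6 in any library. Grm6, for the mGluR6 of retinal bipolar cells, had 1 count, in control replicate 3.

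Grid1, for the delta receptor GluD1, which acts as a synaptic adhesion protein, was at 222, 206 and 205 in control and 265, 281 and 277 in Tlx3cko replicates 1, 2 and 3. The groups did not overlap, but the difference missed the threshold (log2 fold change 0.38, interval 0.09 to 0.66, edgeR adjusted p = 0.159). Neto1 and Neto2 encode auxiliary subunits that slow kainate receptor channels. Neto1 was at 120.0 ± 35.7 and 165 ± 23.2 (0.46, interval -0.03 to 0.94) and Neto2 at 226 ± 31.5 and 238 ± 22.0 (0.08, interval -0.25 to 0.40), and neither passed.

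None of the 12 scaffold genes passed the threshold with edgeR, DESeq2 or limma-voom, and 3 (Dlg2, Homer2 and Shank2) had an unadjusted p under 0.05 in edgeR's fit. Dlg4, for PSD-95, the main scaffold of excitatory synapses, was at 3663 ± 238 in control and 3416 ± 6.59 in Tlx3cko DRGs (log2 fold change -0.10, interval -0.26 to 0.06). Dlg2, for PSD-93, was at 763 ± 111 and 913 ± 49.7 (0.26, interval 0.01 to 0.50, edgeR adjusted p = 0.304). Dlg1 (SAP97) and Dlg3 (SAP102) had intervals of -0.18 to 0.43 and -0.42 to 0.30. Homer proteins link group I metabotropic receptors to calcium stores, and all 3 had fold changes below 0. Homer2 was at 872 ± 127 and 688 ± 99.6 (-0.35, interval -0.62 to -0.07, edgeR adjusted p = 0.205), with overlapping libraries, Homer3 at 788 ± 47.6 and 708 ± 36.8 (-0.15, interval -0.36 to 0.05), and Homer1 at 233 ± 43.0 and 229 ± 34.8. Exons of Ddx49 on the opposite strand cover 25.4% of the exon bases of Homer3. Those of Gm44570, with 384 to 732 counts per library, cover 4.16% of the exon bases of Homer2, also on the opposite strand.

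Shank proteins form the deeper layer of the postsynaptic scaffold. Shank2 was at 117, 96.7 and 105 in control and at 178, 164 and 135 in Tlx3cko replicates 1, 2 and 3. Its groups did not overlap, yet it missed the threshold (log2 fold change 0.58, SE 0.18, interval 0.19 to 0.97, edgeR adjusted p = 0.109). Shank1 at 587 ± 56.7 and 624 ± 45.6 and Shank3 at 569 ± 51.5 and 535 ± 42.8 overlapped. Grip1 and Grip2 encode PDZ proteins that bind the tail of GluA2. Grip1 was at 569.7 ± 17.9 and 612 ± 46.4 (interval -0.12 to 0.32) and Grip2 at 158 ± 12.9 and 150.1 ± 1.78 (interval -0.41 to 0.27).

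Levels were compared between genes as CPM per kilobase of annotated exons. This length joins the exons of all transcripts of a gene and can far exceed the longest transcript. It was 6721 against 3655 bases for Grik1 and 13251 against 6326 for Dlg4, so ranks and shares depend on the length used. In control DRGs Grik1 ranked first of the 38 genes at 43.5 ± 8.30 CPM per kilobase, well apart from Dlg4 (18.5 ± 1.20), Grin1 (16.6 ± 0.892), Homer3 (15.3 ± 0.925) and Grik5 (14.5 ± 1.13), each of which differed from its neighbour in this order by less than the sum of their SDs. In Tlx3cko DRGs Grin1 (18.5 ± 0.889) and Grik1 (18.4 ± 1.66) did not differ beyond their spread, and Dlg4 (17.2 ± 0.0332) followed, with its 3 libraries below all those of Grin1 and Grik1. Grin2d moved from rank 22 at 1.89 ± 0.346 to rank 10 at 5.21 ± 0.935 CPM per kilobase.

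The summed kainate level was 74.2 ± 8.44 CPM per kilobase in control and 46.4 ± 2.55 in Tlx3cko DRGs, or 62.5% of control, with 64.5 to 79.8 in control and 44.0 to 49.0 in Tlx3cko libraries. Grik1 made up 58.3 ± 4.99% of it in control and 39.6 ± 1.64% in Tlx3cko DRGs. The shares of Grik4 (16.7 ± 1.14% to 24.5 ± 1.63%), Grik5 (19.8 ± 3.10% to 26.8 ± 0.612%), Grik3 (4.45 ± 1.004% to 7.83 ± 0.130%) and Grik2 (0.756 ± 0.122% to 1.23 ± 0.440%) were higher in every Tlx3cko library. A lower Grik1 share raises the other shares by itself, and the levels of these genes did not pass the test. Grik4 was at 92.2%, Grik5 at 85.5%, Grik3 at 112% and Grik2 at 101% of control.

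The summed NMDA level was 25.7 ± 1.32 and 30.1 ± 2.43 CPM per kilobase. Grin1 kept most of it, at 64.6 ± 3.001% and 61.6 ± 2.05%, while Grin2d went from 7.33 ± 0.976% to 17.2 ± 1.93% and Grin2c from 1.76 ± 0.308% to 0.788 ± 0.124%. Grin3a made up 7.53 ± 1.10% and 4.79 ± 1.18%. These 3 shares did not overlap between the genotypes.

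The AMPA sum was 12.3 ± 0.389 and 16.6 ± 0.503 CPM per kilobase, 135% of control, and the shares of its subunits overlapped between the genotypes, with Gria4 at 56.2 ± 9.98% and 58.1 ± 0.973% and Gria2 at 9.99 ± 0.7005% and 10.7 ± 0.625%. The metabotropic sum was 24.2 ± 1.52 and 31.5 ± 1.55, 130% of control, of which Grm4 made up 46.3 ± 4.28% and 50.5 ± 4.70%, Grm7 43.7 ± 3.46% and 38.7 ± 5.24%, and Grm8 8.60 ± 0.920% and 8.95 ± 0.710%. All 3 Tlx3cko libraries exceeded all controls in both sums. The Dlg sum was 97.7%, the Homer sum 88.0% and the Shank sum 104% of control. With 3 libraries per genotype an exact two-sided permutation test cannot go below p = 0.1, so none of these sums and shares could pass a threshold of 0.05.

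**Figure D3:**
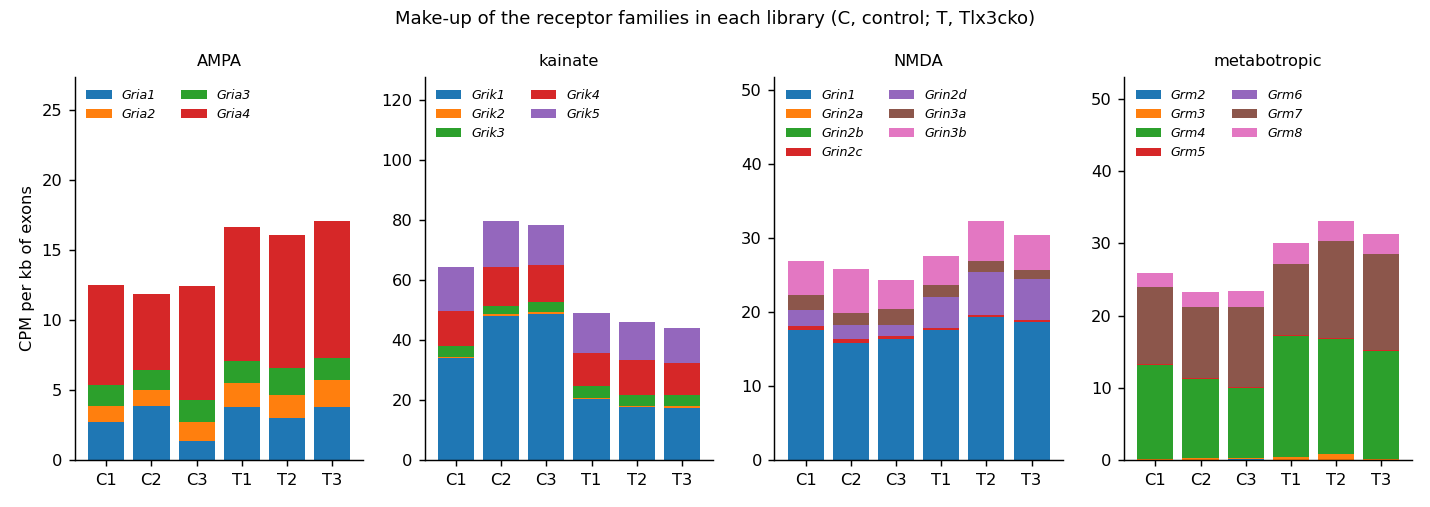
Level of each receptor subunit (CPM per kilobase of exons, stacked from 0) in control replicates C1 to C3 and Tlx3cko replicates T1 to T3, for the AMPA, kainate, NMDA and metabotropic families. The kainate stack falls from 64.5 to 79.8 in control to 44.0 to 49.0 in Tlx3cko libraries through its Grik1 part, and the Grin2d part of the NMDA stack widens.

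Promoter windows are shown for the members with a call whose RefSeq entry holds 1 promoter window (26 of the 38 members have an entry, on GRCm38.p6), from 250 bases before to 50 bases after the start, on the coding strand with CG dinucleotides in capitals.
Grin2d (chr7:45866632-45866931, minus strand): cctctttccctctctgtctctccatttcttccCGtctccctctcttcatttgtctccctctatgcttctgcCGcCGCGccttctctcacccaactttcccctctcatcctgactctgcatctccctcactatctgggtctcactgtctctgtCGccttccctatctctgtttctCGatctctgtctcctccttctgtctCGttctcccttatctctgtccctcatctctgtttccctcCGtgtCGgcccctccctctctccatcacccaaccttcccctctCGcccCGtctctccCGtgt
Gria2 (chr3:80802786-80803085, minus strand): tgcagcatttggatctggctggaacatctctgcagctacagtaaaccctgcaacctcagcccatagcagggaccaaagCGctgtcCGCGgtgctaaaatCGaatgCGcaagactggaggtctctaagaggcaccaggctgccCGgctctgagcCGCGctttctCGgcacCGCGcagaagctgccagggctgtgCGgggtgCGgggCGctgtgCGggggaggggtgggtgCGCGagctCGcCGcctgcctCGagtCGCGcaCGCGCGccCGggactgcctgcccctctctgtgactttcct
The Gria2 window spans the 5′ end of its annotated gene, at 80802835. The Grin2d window lies inside the gene as annotated, whose 5′ end is at 45878378, so it covers an internal start. The Gria2 window holds 26 CG dinucleotides and the Grin2d window 12, against a median of 7 over all promoters, and 16.9% and 39.6% of promoters hold at least as many. The letters TAAT, the core of many homeodomain binding sites, were searched on both strands and are in neither window, while 58.0% of 32851 promoters hold them. The letters GGGCGG of the GC box, also searched on both strands, are in neither window and in 35.7% of promoters. Grik1 and Grm4, also members with a call, have no promoter entry, so neither was searched. Grm8, also a member with a call, has more than 1 window, and these are not shown. Its windows at chr6:28135097-28135396 and chr6:28134372-28134671 hold TAAT 1 time each, and the first also holds GGGCGG 1 time. Its window at chr6:28126377-28126676 holds neither.

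Another 34 genes of glutamate signalling were read beside the members, namely AMPA receptor auxiliary subunits, scaffold partners, CaM kinase II and genes for the supply and uptake of glutamate. Of these, 2 were lower, 3 were higher and 29 did not pass, so that 14.7% passed, against 4.25% of all genes tested. The median log2 fold change was 0.12, against -0.00 over all genes. Among the 12 AMPA auxiliary genes, Cacng2 and Cnih2 were higher. Cacng2 encodes stargazin, which brings AMPA receptors to the membrane, and it was at 573, 539.6 and 444 in control and at 1100.1, 1016 and 1110.1 in Tlx3cko replicates 1, 2 and 3. The groups lay far apart, with means of 519 ± 66.8 and 1075 ± 51.9, a 2.07-fold difference (log2 fold change 1.05, SE 0.11, interval 0.82 to 1.29, edgeR adjusted p = 8.54e-05), and the call held in all 6 fits with one library left out. Exons of A730060N03Rik on the opposite strand cover 5.86% of its exon bases. Cnih2, for a cornichon protein that slows AMPA receptor closing, was at 496 ± 70.9 and 699 ± 34.0 (0.50, edgeR adjusted p = 0.0294). Its call held only without control replicate 1, with the edgeR adjusted p up to 0.123 in the other 5 fits. The skeletal muscle sums ranked the control libraries in the same order as Cacng2 and Cnih2, but not the Tlx3cko libraries. The part of muscle RNA in these results was not tested.

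CaM kinase II, which phosphorylates AMPA receptors, moved in both directions: Camk2a was lower, at 3903 ± 379 and 2795 ± 82.7 (-0.48, edgeR adjusted p = 0.00404), and Camk2g higher, at 5766 ± 506 and 7562 ± 485 (0.39, edgeR adjusted p = 0.0150). Camk2a passed in all 6 fits with one library left out and Camk2g in 3, being lost when control replicate 2 or Tlx3cko replicate 1 or 3 was left out (edgeR adjusted p 0.0507 to 0.0731). With the sex term Camk2a and Camk2g did not pass (edgeR adjusted p 0.0653 and 0.157). Among the 10 supply and uptake genes, only Slc17a8 was lower. It encodes VGLUT3, which loads glutamate into vesicles and is itself one of the C-LTMR markers above, and it was at 85.3, 198 and 185 in control and at 49.1, 43.3 and 35.4 in Tlx3cko replicates 1, 2 and 3 (-1.88, SE 0.30, edgeR adjusted p = 0.00276).

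**Figure D4:**
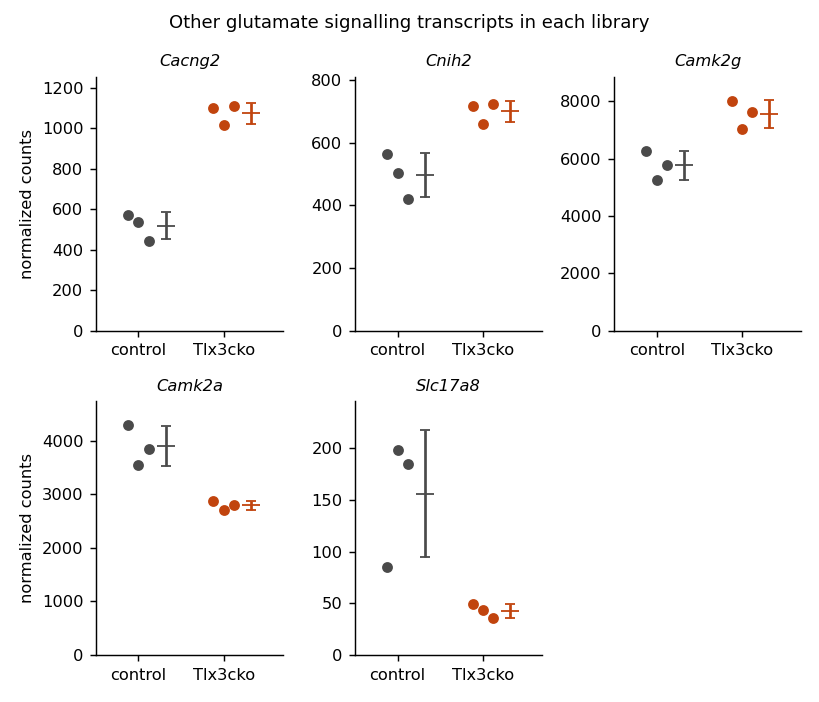
Normalized counts (vertical axes, from 0) of the 5 other glutamate signalling genes past the threshold, as points per library with the mean and SD beside them (n = 3 per genotype). Cacng2 is at 444 to 573 in control and 1016 to 1110.1 in Tlx3cko libraries, and Slc17a8 at 85.3 to 198 and 35.4 to 49.1.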

How the data were processed

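DRG RNA of 3 mice per genotype was sequenced on an Illumina instrument. The table that the authors deposited holds raw read counts per gene and library, with no normalization. The submitters' processing notes name STAR 2.5.2a and the mm10 build, while the counting program, the annotation and the use of strand are not given in the sources used here. No column of the table was left unused (0). Gene names, positions and exon lengths come from GENCODE M21 on GRCm38, and promoters from RefSeq.

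Genes with at least 10 counts in total entered edgeR 4.0.16 (R 4.3.3), with TMM normalization and the quasi-likelihood test (glmQLFit, glmQLFTest), with Benjamini-Hochberg adjusted p under 0.05 over all genes as the threshold. The SE is the size of the log2 fold change over the square root of F, and 95% intervals from the test's degrees of freedom. The genes named are all members, the other glutamate signalling genes past the threshold, Tlx3, and Scn10a as the gene whose promoter drives the Cre. Scn10a was at 24208 ± 1097 and 32659.5 ± 2159.6 normalized counts (log2 fold change 0.43, edgeR adjusted p = 0.00281). Some results covered by this rule are not reported here. The members and the gene lists were chosen with earlier results of these data known. The labels do not say how the libraries relate to animals or cages, so p-values measure only the spread between these samples. Limits from counts of 0 cover counting error only.

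Libraries of the same genotype differed by more than sampling noise (chi-square per degree of freedom 4.32 to 10.1) and were counted as separate samples. On simulated counts for 19650 genes of this comparison, edgeR recovered 85.9% of genes changed by 1 on the log2 scale and 98.1% of those changed by 2, and unchanged genes made up 5.13% of its calls. Changes were planted only in genes above a minimum mean count, and each gene was given the spread of edgeR's trend. Recovery of smaller changes, such as those of Gria2, Grm4 and Grm8, and of scarcer genes was not measured. Alternatives were DESeq2 1.42.0, limma-voom (limma 3.58.1), other size factors and filters, the replicate number as a block, a sex term, and each library left out in turn.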

Additional observations from a re-analysis of the deposited data

How the results depend on the processing

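The number of members lower in Tlx3cko was 1 in every alternative except without the filter on low counts, where Homer2 joined and it was 2. For Grik1, leaving out the filter moved the edgeR adjusted p from 6.7e-05 to 2.01e-42, at log2 fold changes of -1.24 and -1.25. Homer2, Gria4, Glul and Cacng8 also kept log2 fold changes close to those reported, so their calls in that fit came with smaller p-values only. The number higher was 4 as reported, 5 with DESeq2 or without the filter (Gria4 joined), 3 with library totals alone (Grm8 left), 3 with the sex term (Gria1 joined, Gria2 and Grm8 left) and 1 to 3 with one library left out. Grik1 and Grin2d kept their calls in all alternatives. Of the other glutamate signalling genes, 1 was lower and 2 were higher with the sex term, 5 were higher without the filter (Glul and Cacng8 joined), and 1 to 3 were higher with one library left out (1 on leaving out control replicate 2 or Tlx3cko replicate 1 or 3). Over all genes, 1529 passed without the filter, 487 with the sex term and 488 to 938 with one library left out (530 without control replicate 2, 488 without Tlx3cko replicate 2 and 512 without Tlx3cko replicate 3). No alternative turned the direction of a call. Fold changes near 0 did turn. Grik2 was at -0.013 with limma-voom, -0.0048 with the replicate block, -0.23 with the sex term and -0.27 to 0.17 with one library left out. With the sex term Grin3b was at 0.26, Neto2 at -0.10, Homer1 at 0.14, Shank3 at 0.0076 and Cacng4 at -0.15. With limma-voom Homer1 was at 0.010 and Shisa7 at 0.00053. With one library left out the ranges were -0.17 to 0.14 for Grin3b, -0.024 to 0.18 for Neto2, -0.13 to 0.030 for Dlg3, -0.11 to 0.14 for Homer1, -0.094 to 0.12 for Cacng4, -0.31 to 0.27 for Shisa7, -0.022 to 0.20 for Dlgap3 and -0.092 to 0.053 for Slc17a6. The difference in share ranged over these fits from -5.89 to 4.90 percentage points for Gria1, -3.37 to 6.55 for Gria4 and -0.16 to 0.74 for Grm8. In each case the cause was not tested.

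Same-numbered libraries of the genotypes did not deviate together (correlations of their deviations -0.0868, -0.0274 and -0.0669). These values cannot tell whether same-numbered animals were related or handled together. With the replicate block 770 genes passed, and among the members Gria4 entered at 0.50 (edgeR adjusted p = 0.0381) while Grm8 left (0.44, edgeR adjusted p = 0.0915). Grm8 also left with library totals alone (edgeR adjusted p = 0.0513). Grm3 and Grm5, with at most 27 counts in any library, had intervals of -0.34 to 2.42 and -0.58 to 1.95.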

Other observations

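CaM kinase II transcripts changed in their make-up while their sum did not separate by genotype (112 ± 9.55 CPM per kilobase in control and 120 ± 7.13 in Tlx3cko DRGs). Camk2a, for the alpha isoform, made up 31.1 ± 0.531% of the sum in control and 20.8 ± 0.632% in Tlx3cko DRGs, and Camk2g, for the gamma isoform, 53.6 ± 0.152% and 65.6 ± 0.326%. Camk2d made up 8.84 ± 0.977% and 7.09 ± 0.564%, and Camk2b overlapped at 6.39 ± 0.317% and 6.51 ± 0.408%. The annotated exons of Camk2d cover 22493 bases and its longest transcript 5524, so these shares depend on the length used.

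Genes that load, recycle and clear glutamate were nearly all below the threshold. Slc17a7 and Slc17a6, for the vesicular transporters VGLUT1 and VGLUT2, were at 4703 ± 527 and 5323 ± 241 and at 2923 ± 304 and 2851 ± 138 normalized counts in control and Tlx3cko DRGs. They made up 60.2 ± 4.48% and 64.8 ± 0.291%, and 37.5 ± 3.59% and 34.6 ± 0.364%, of the vesicular transporter level, with Slc17a8 at 2.32 ± 0.993% and 0.591 ± 0.0827%. Slc1a1, Slc1a2 and Slc1a3, for the plasma membrane transporters EAAT3, EAAT2 and EAAT1, had log2 fold changes of 0.51, 0.66 and 0.41 (edgeR adjusted p 0.323, 0.394 and 0.257). Glul, for the glutamine synthetase of satellite glia, was at 4592 ± 361 and 5509 ± 412 (0.26, edgeR adjusted p = 0.114), and passed with DESeq2 (adjusted p = 0.0444) and without the filter on low counts (edgeR adjusted p = 0.0364). Cacng8, for an AMPA auxiliary subunit, had 18 to 22 counts in control and 34 to 53 in Tlx3cko libraries (1.24, edgeR adjusted p = 0.0677).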
